A study of Mus musculus with 12 samples.

Results

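The genes described here had lesion effects of the same sign in prefrontal cortex and in striatum of mice lesioned with 6-hydroxydopamine (6-OHDA). They were chosen from 1 fit of read counts over 12 libraries, in which the lesion effect of prefrontal cortex and that of striatum were averaged and the average was tested per gene. A gene was called at an adjusted p below 0.05 (quasi-likelihood test of edgeR, Benjamini and Hochberg over all genes tested) and was kept when both regional effects had the same sign. Of 14545 genes tested, out of 21872 symbols in the table, 922 (6.34%) were called for the average, and 903 (6.21%) also had the same sign in both regions: 508 were higher and 395 lower in lesioned tissue. A same-sign call need not be a change in both regions, since 1 region can carry the average. Of the 903, 516 (3.55% of genes tested) had an unadjusted p below 0.05 in each region's own test within this fit. The groups were control and 6-OHDA mice of the strain C57BL/6J at postnatal day 24, with 3 libraries of each in prefrontal cortex and 3 of each in striatum. The labels name the 6-OHDA animals as ADHD and the others as CTL, since the treatment is used as a model of attention-deficit/hyperactivity disorder. All groups shared strain, age and library type, and every library held transcripts of Y-linked genes. The labels leave out the dose, route and day of the toxin and what controls received. They do not tie libraries to single animals either, and p-values therefore reflect variation between libraries, which may be technical.

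6-OHDA is taken up through catecholamine transporters and kills the neurons that take it up. Dopamine neurons of the midbrain send dense fibres to the striatum and sparse fibres to the prefrontal cortex, where dopamine acts through G protein-coupled receptors on local neurons. The cell bodies of dopamine neurons lie in neither region, and a bulk library of either region therefore holds RNA of local neurons, glia, vessels and attached meninges. In such libraries fewer cells of a type and less RNA per cell cannot be told apart.

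Total counts ran from 15078631 to 20925452 per library, so that 3 counts corresponded to 0.143 to 0.199 CPM, that is, counts scaled to a common library total. Values below are CPM scaled with TMM factors, effects are log2 fold changes of lesioned over control libraries with their standard error, and intervals or floors from counts cover counting error only. Rows holding only multiples of 11 were left out: 5562 symbols, of which 1830 were above 0 anywhere. These 1830 are exactly the symbols with counts elsewhere that are at 0 in lesioned prefrontal library 1, so no gene at 0 in that library was tested. Region markers went with the labels: the summed level of 22 cortical excitatory markers was 4977 to 5432 CPM in prefrontal and 594 to 1879 CPM in striatal libraries. A pair of striatal libraries stood apart. Lesioned striatal library 1 had the highest summed level of 24 striatal projection neuron markers (19142 CPM, against 7715 and 11018 in the other lesioned and 3972 to 6224 in control striatal libraries). Control striatal library 2 had 3202 CPM of 18 choroid plexus and ependyma markers, against 322 to 461 in the other striatal libraries. It also had 1879 CPM of the cortical excitatory markers, against 594 to 913 in the other striatal libraries. Its level of projection neuron markers, 3972 CPM, was the lowest in striatum. Without both of these libraries, an alternative added after the data were seen, 1251 genes were called with the same sign and 773 of the 903 were among them.

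Genes of the dopamine system were measured first, since they bear on the labels. Th, the rate-limiting enzyme of dopamine synthesis, measured 8.2, 3.21 and 3.54 CPM in control and 2.26, 3.02 and 2.72 CPM in lesioned prefrontal cortex, and 11.5, 6.85 and 11.5 CPM in control and 9.34, 11.1 and 13.5 CPM in lesioned striatum. Lesioned and control libraries overlapped in striatum, and the mean effect was not called (-0.38 ± 0.23, adjusted p = 0.34). The vesicular monoamine transporter Slc18a2 (-0.47 ± 0.59), the receptors Drd1 (0.45 ± 0.26) and Drd2 (0.34 ± 0.36) and the neuropeptides Penk (0.41 ± 0.21), Tac1 (0.05 ± 0.20) and Pdyn (0.10 ± 0.13) were not called either. The dopamine transporter Slc6a3 had at most 18 counts and did not pass the filter on low counts. Among 27 tested genes of dopamine signalling 1 was called lower, Ddc, which encodes the decarboxylase that makes dopamine from L-DOPA, and 1 higher, Arpp19. Another 1 was called for the average with opposite signs in the regions. Ddc measured 8.55, 7.45 and 8.11 CPM in control and 4.73, 4.04 and 5.21 CPM in lesioned prefrontal cortex, and 22, 16.5 and 19 CPM in control and 10.4, 17.5 and 14 CPM in lesioned striatum. The mean effect of Ddc was -0.62 ± 0.13 (SE; adjusted p = 0.0181), with -0.79 ± 0.19 in prefrontal cortex and -0.45 ± 0.17 in striatum. Its libraries were apart in prefrontal cortex and overlapped in striatum. Arpp19 had raw counts of 8454, 7200 and 6217 in control and 8248, 7087 and 7483 in lesioned prefrontal cortex, which overlapped. In striatum they were 2741, 2379 and 4042 in control and 9888, 5710 and 6093 in lesioned libraries, so its rise was seen in striatum. The call of Ddc was lost without control prefrontal library 1 or lesioned prefrontal library 1 or 2, and that of Arpp19 without any prefrontal library but control library 2.

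The 508 higher genes make up 3.49% and the 395 lower genes 2.72% of all genes tested, and these shares are the background for every count of a gene group below. The absolute mean effect of the 903 had a median of 0.35 on the log2 scale, an upper quartile of 0.55 and a maximum of 2.68. The striatal effect was the larger in 626 of the 903. For 623 of the 903 (362 higher, 2.49% of genes tested, and 261 lower, 1.79%) all 3 lesioned libraries lay on the same side of all 3 controls in both regions. Libraries were apart the same way in both regions, at any p, in 6.75% of all genes tested (3.7% upward and 3.05% downward). Taken alone within the same fit, prefrontal cortex had 30 calls (0.206%), which were all among the 903, and striatum had 1040 (7.15%), of which 534 were. Neither region alone called 359 of the 903. Biological coefficients of variation were 5.84% over the prefrontal and 15% over the striatal libraries. The fit shared its estimate of the spread over both regions. Regional standard errors and p-values of this fit, here and below, therefore tend to be too large for prefrontal cortex and too small for striatum. The 30 and 1040 regional calls are thus no comparison of the regions.

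**Figure D1:**
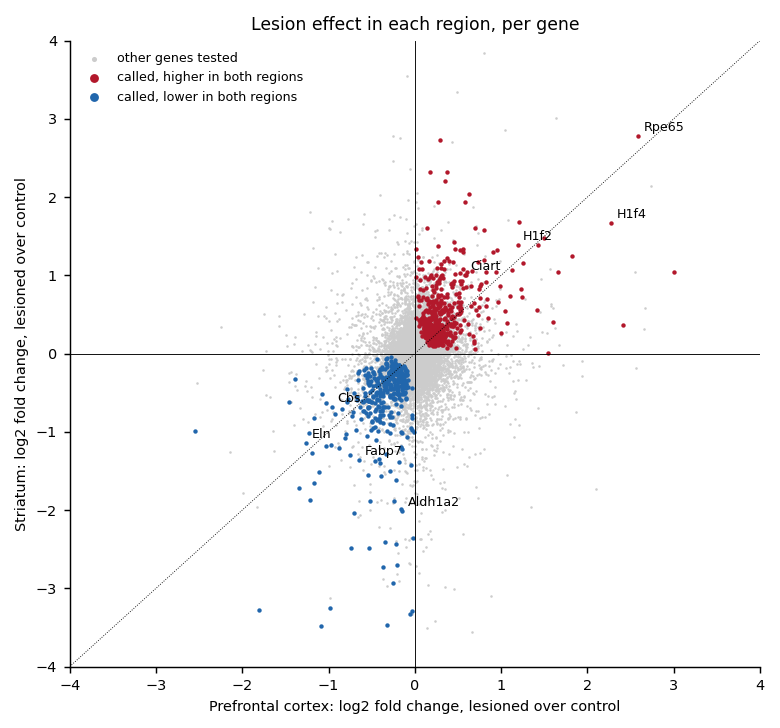
Lesion effect in striatum against the lesion effect in prefrontal cortex (log2 fold changes, lesioned over control) for each gene tested. Red and blue points are the 508 higher and 395 lower genes that were called with the same sign in both regions, grey points are all other genes, and the dotted line marks equal effects. The 13 genes with an effect beyond 4 in either region are not drawn.

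The number of genes called depended on single libraries. Leaving out any of the 6 prefrontal libraries gave 339 to 542 same-sign calls, leaving out control striatal library 3 gave 583 and leaving out lesioned striatal library 2 gave 1642. When each region was tested on its own 6 libraries and the larger p of both regions was adjusted, no gene was called (smallest adjusted p = 0.285), while 709 genes had an unadjusted p below 0.05 in both regions with the same sign and 563 of these were among the 903. Each of 233 genes (116 higher, 117 lower) was called in all 27 other settings tried, and some of the genes named below are pointed out as core genes for that reason. Just inside the threshold were Smchd1 (0.18) and Tcp11 (-1.0), and just outside it Ssr2 (-0.15) and Rab3a (-0.15), all as mean log2 fold changes.

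Part of the circadian clock genes rose. The clock is a loop of transcription factors in which Clock and Arntl bind E-boxes (letters CACGTG) in the promoters of Per and Cry genes, whose proteins then repress them. Of 20 tested clock genes, 8 were called higher and 0 lower, with a median mean effect of 0.25, against 0.00268 over all genes tested. Those called were Per1, Per2, Per3 and Cry1, the repressors Ciart, Bhlhe40 and Bhlhe41, and the nuclear receptor Rora. Promoters are shown for 3 of these genes because the E-boxes in them are the letters the clock proteins bind. Each is the stretch of 250 bases before the annotated start, 5′ to 3′ on the gene's strand, from RefSeq on GRCm38.p6, with every CACGTG in capitals. Where a gene has several annotated starts, the window with the most matches is shown.
Ciart (chr3:95882229-95882478, minus strand): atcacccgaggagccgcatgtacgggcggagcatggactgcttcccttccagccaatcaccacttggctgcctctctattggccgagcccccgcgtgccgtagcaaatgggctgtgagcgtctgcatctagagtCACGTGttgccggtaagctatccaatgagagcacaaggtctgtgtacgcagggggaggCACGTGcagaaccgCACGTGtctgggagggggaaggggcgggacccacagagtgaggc
Per1 (chr11:69098699-69098948, plus strand): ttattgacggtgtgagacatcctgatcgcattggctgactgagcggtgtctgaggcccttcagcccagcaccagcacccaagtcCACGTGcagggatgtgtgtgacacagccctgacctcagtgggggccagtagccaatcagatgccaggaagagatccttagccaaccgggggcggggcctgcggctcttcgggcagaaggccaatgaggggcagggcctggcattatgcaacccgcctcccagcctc
Bhlhe41 (chr6:145865421-145865670, minus strand): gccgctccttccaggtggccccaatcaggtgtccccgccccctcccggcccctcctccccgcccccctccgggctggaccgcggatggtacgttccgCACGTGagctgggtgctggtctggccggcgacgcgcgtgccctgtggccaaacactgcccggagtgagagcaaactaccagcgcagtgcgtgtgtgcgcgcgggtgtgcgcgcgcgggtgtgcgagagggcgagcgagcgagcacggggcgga
The Ciart window holds 3 E-boxes, which end 111, 53 and 39 bases before the start, and those of Per1 and Bhlhe41 hold 1 each. The motif reads the same on both strands. Of the 8 genes, 6 had a window in the table and 4 of these held the motif (Cry1 is the other), against 1 of 11 clock genes that were tested and not called. The motif is in 6.02% of all 32851 windows and in at least 1 window of 9.55% of the 11494 tested genes that have any. Among the higher genes of the 903 the share with it was 11.4%, and among the lower genes 10.9%. These matches are a description of letters and not evidence of binding.

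Ciart, a repressor of Clock and Arntl, measured 18.9, 14.6 and 19.6 CPM in control and 29.3, 26.6 and 23.7 CPM in lesioned prefrontal cortex, and 12.2, 10.1 and 13.5 CPM in control and 32.9, 16.5 and 22.9 CPM in lesioned striatum. All lesioned libraries lay above all controls in both regions. Its mean effect was 0.79 ± 0.15 (SE; adjusted p = 0.0121), a fold of 1.73. Per1 measured 115, 101 and 93 CPM in control and 189.6, 167 and 129 CPM in lesioned prefrontal cortex, and 82, 83.1 and 87.9 CPM in control and 209, 119 and 136 CPM in lesioned striatum. Again no lesioned library overlapped the controls, and the mean effect was 0.76 ± 0.13 (SE; adjusted p = 0.00905). Lesioned striatal library 1 was the highest striatal library for Ciart, Per1 and Per2, and without it and control striatal library 2 the count of higher clock genes was 8, with a median of 0.18. Per2 (0.67 ± 0.15), Bhlhe41 (0.45 ± 0.09), Bhlhe40 (0.44 ± 0.09), Cry1 (0.27 ± 0.07) and Rora (0.24 ± 0.06) were also apart in both regions. Per3 (0.27 ± 0.07) was not: its effect was 0.08 ± 0.10 in prefrontal cortex and 0.46 ± 0.10 in striatum. Of the genes that were not called, the repressor Cry2 had a mean effect of 0.11 ± 0.07, Arntl of -0.03 ± 0.08, Nr1d1 of 0.23 ± 0.08 and Dbp of 0.39 ± 0.14. Clock gene calls numbered 5, 5 and 4 without control prefrontal libraries 1, 2 and 3, 4, 4 and 5 without lesioned prefrontal libraries 1, 2 and 3, 5 without control striatal library 3 and 13 without lesioned striatal library 2. With offsets that take out each library's dependence on GC content and transcript length, 5 were called, with Per3, Cry1 and Rora lost. The labels give no hour of tissue collection.

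**Figure D2:**
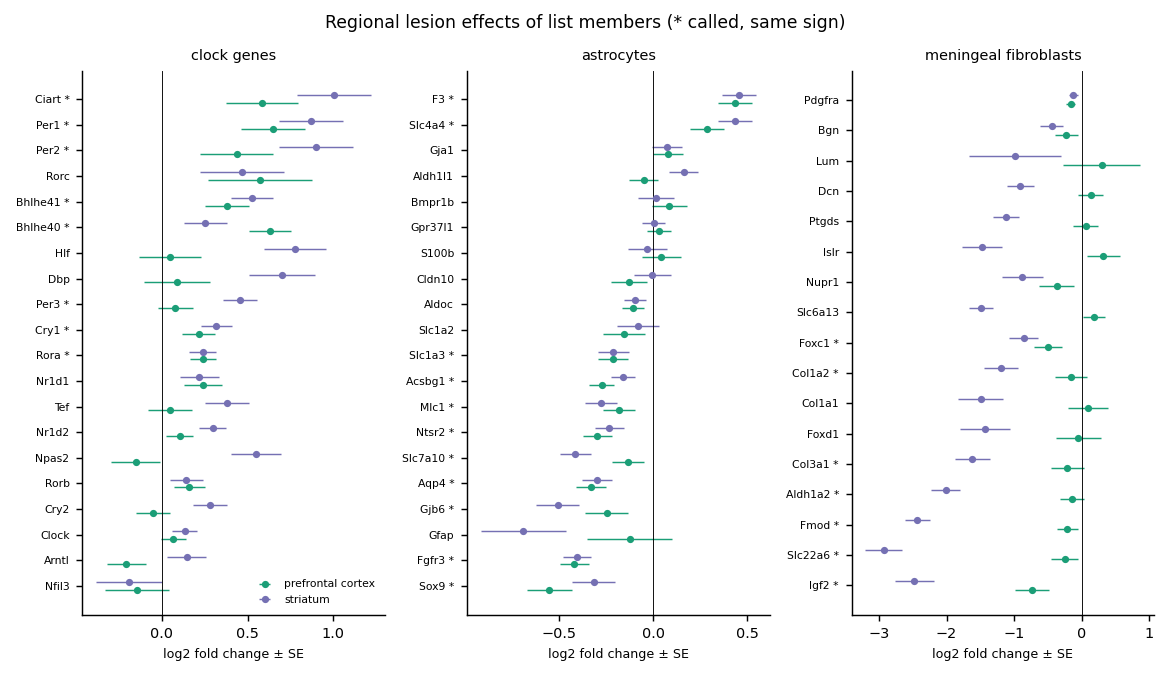
Lesion effects (log2 fold change ± SE, lesioned over control) in prefrontal cortex (green) and striatum (violet) for members of the clock, astrocyte and meningeal fibroblast lists; an asterisk marks a same-sign call. Clock genes lie mostly to the right of 0 in both regions, most astrocyte genes lie to the left in both, and meningeal genes lie left of 0 chiefly in striatum.

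Glucocorticoid-responsive genes changed in both directions. Glucocorticoids are adrenal steroids that act through a nuclear receptor, which binds the half-site AGAACA followed, after a spacer of 3 bases of any kind, by the reverse complement of that half-site. Of 25 tested genes, 6 were called higher (Sgk1, Tsc22d3, Arrdc2, Klf9, Xdh and Per1, which is also a clock gene) and 2 lower (Sult1a1 and Mfsd2a), with a median of 0.21. The Sgk1 promoter is shown because it holds the full element, in capitals.
Sgk1 (chr10:21993640-21993889, plus strand): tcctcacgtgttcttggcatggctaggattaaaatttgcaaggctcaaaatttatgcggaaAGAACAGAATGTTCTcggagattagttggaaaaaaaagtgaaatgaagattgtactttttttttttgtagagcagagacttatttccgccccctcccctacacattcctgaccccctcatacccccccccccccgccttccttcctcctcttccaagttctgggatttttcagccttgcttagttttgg
The match, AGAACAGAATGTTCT, ends 175 bases before the start. Only 3 of the 32851 windows (0.00913%) hold the element on either strand, and Sgk1 was the 1 gene with it among the 377 higher genes that have a window.

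Sgk1, a kinase that regulates ion transport, measured 56.3, 61.8 and 64.8 CPM in control and 97.6, 91.6 and 79.7 CPM in lesioned prefrontal cortex, and 49.8, 62.3 and 66.5 CPM in control and 156, 182 and 102 CPM in lesioned striatum. Every lesioned library exceeded every control in both regions, and the mean effect was 0.93 ± 0.13 (SE; adjusted p = 0.00277), with 0.56 ± 0.18 in prefrontal cortex and 1.3 ± 0.18 in striatum. Tsc22d3, also called GILZ, a mediator of steroid action, measured 66.7, 76.1 and 66.8 CPM in control and 101, 98.8 and 103 CPM in lesioned prefrontal cortex, and 86.8, 75.5 and 85.2 CPM in control and 97.6, 143 and 120.1 CPM in lesioned striatum. It too was apart in both regions (0.54 ± 0.08), as was the arrestin-like Arrdc2 (0.81 ± 0.14). Klf9, a zinc finger factor, rose on average (0.41 ± 0.09), with 0.09 ± 0.13 in prefrontal cortex and 0.73 ± 0.13 in striatum, and its prefrontal libraries overlapped. Sult1a1, a sulfotransferase, fell: it measured 14.3, 16.2 and 15.8 CPM in control and 10.2, 11.3 and 10.5 CPM in lesioned prefrontal cortex, and 13.4, 13.9 and 12.9 CPM in control and 9.58, 8.58 and 8.48 CPM in lesioned striatum, apart in both regions (-0.56 ± 0.07, adjusted p = 0.00116). Fkbp5, a widely used marker of glucocorticoid action, was not called (0.07 ± 0.11, adjusted p = 0.704). Sgk1, Tsc22d3, Arrdc2, Sult1a1, Per1 and Ciart are core genes.

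Immediate early genes, which neurons induce within minutes of activity, were called in part. Of 40 tested, 5 were higher (Tiparp, Trib1, Nr4a1, Klf10 and Per1) and 0 lower, with a median of 0.17. Tiparp measured 15.9, 15 and 19.6 CPM in control and 23.2, 21.9 and 20.5 CPM in lesioned prefrontal cortex, and 22.6, 23 and 25.5 CPM in control and 36.1, 33.3 and 30.8 CPM in lesioned striatum, with all lesioned libraries above the controls (0.44 ± 0.07, adjusted p = 0.00787). Nr4a1, an orphan nuclear receptor, was apart in both regions as well (0.82 ± 0.19), whereas Trib1 (0.68 ± 0.11 in prefrontal cortex and 0.22 ± 0.12 in striatum) and Klf10 (0.61 ± 0.15 in prefrontal cortex and 0.38 ± 0.17 in striatum) overlapped in striatum. Fos (-0.01 ± 0.16), Arc (0.56 ± 0.22) and Npas4 (0.08 ± 0.10) were not called. Calls fell to 3 without control prefrontal library 1 or 2 or any lesioned prefrontal library, numbered 9 without lesioned striatal library 2, and numbered 11 without both striatal libraries that stood apart.

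The linker histone genes H1f2 and H1f4 rose in both regions. Linker histones (H1) seal DNA at the nucleosome, and the clustered histone genes make the bulk of histone protein in S phase. Most transcripts of clustered genes end in a stem-loop and lack a poly(A) tail, and these libraries were made from purified mRNA. Of 56 genes of the histone clusters, a family defined by symbol after values had been seen, 29 were left out as rows of multiples of 11 and 14 passed the filter on low counts, and 5 of these were called, all higher. Genes of such low level can pass the filter through the lesioned libraries alone, so this count supports no direction of the family. Those called, each apart in both regions, were H1f2, H1f4, H2ac6, H2bc6 and H4c8. The call of H4c8 was lost in 23 of 28 other settings. The promoters of the 2 linker genes are shown because both hold the H1 box, AAACACA, a short element of H1 promoters, here in capitals.
H1f2 (chr13:23738557-23738806, plus strand): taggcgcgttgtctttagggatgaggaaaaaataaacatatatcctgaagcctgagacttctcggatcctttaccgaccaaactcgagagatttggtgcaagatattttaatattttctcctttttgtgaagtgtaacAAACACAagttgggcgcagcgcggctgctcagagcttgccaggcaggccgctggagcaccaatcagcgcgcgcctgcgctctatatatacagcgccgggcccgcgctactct
H1f4 (chr13:23622559-23622808, minus strand): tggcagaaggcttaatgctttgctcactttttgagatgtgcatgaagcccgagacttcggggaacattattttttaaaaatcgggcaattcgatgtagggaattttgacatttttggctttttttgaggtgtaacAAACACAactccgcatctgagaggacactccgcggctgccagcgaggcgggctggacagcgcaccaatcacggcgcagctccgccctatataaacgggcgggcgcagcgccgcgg
The box ends 106 bases before the start in H1f2 and 109 bases before it in H1f4. Of all windows, 6.25% hold these letters or their reverse complement.

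H1f2 measured 10.6, 10.7 and 16.3 CPM in control and 26, 27.1 and 32.4 CPM in lesioned prefrontal cortex, and 16.6, 15 and 24.9 CPM in control and 50.6, 45.9 and 51.3 CPM in lesioned striatum. The lesioned libraries were all above the controls, with a mean effect of 1.29 ± 0.14 (SE; adjusted p = 0.000912), a fold of 2.44. H1f4 was lower in level and rose more: it measured 0.296, 0.385 and 0.545 CPM in control and 1.89, 2.05 and 1.94 CPM in lesioned prefrontal cortex, and 0.70, 0.748 and 1.27 CPM in control and 3.5, 2.31 and 2.98 CPM in lesioned striatum, a mean effect of 1.97 ± 0.21 (SE; adjusted p = 0.000912). H1f4 (chr13:23620629-23622558, GRCm38, minus strand) overlaps H2bc6 (chr13:23583670-23621124) on the same strand, and close paralogs share sequence, so counts of single histone genes are uncertain. H2ac6 (1.35 ± 0.25), H2bc6 (1.1 ± 0.20) and H4c8 (0.73 ± 0.20) had levels of 0.296 to 10.4 CPM. H1f0, a linker histone outside the clusters whose transcript is polyadenylated, measured 96.7, 97.4 and 106 CPM in control and 117, 120.4 and 133 CPM in lesioned prefrontal cortex, and 85.7, 96.6 and 101 CPM in control and 99.1, 124 and 125 CPM in lesioned striatum, and its mean effect was 0.30 ± 0.07 (SE; adjusted p = 0.0263), with an overlap in striatum. The other tested linker histone, H1f10, was not called. H1f2 and H1f4 are core genes.

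Clustered protocadherins that were called were all higher. These cell adhesion proteins are expressed in combinations that let neurons tell self from non-self. Of 53 tested isoform genes, defined by symbol after values had been seen, 15 were called higher and 0 lower, with a median of 0.25. Libraries were apart in both regions for 12 of the 15. Pcdhb19 measured 12, 11.2 and 13.4 CPM in control and 17.6, 16.7 and 15.8 CPM in lesioned prefrontal cortex, and 13.4, 9.95 and 14.1 CPM in control and 30.2, 18.7 and 22.8 CPM in lesioned striatum, with all lesioned above all control libraries (0.69 ± 0.12, adjusted p = 0.00893). Pcdhb21 (0.63 ± 0.11), Pcdhb14 (0.50 ± 0.10) and Pcdhb17 (0.48 ± 0.08) were apart in both regions too. Isoform genes overlap other annotated genes on the same strand and resemble each other, so their single counts are uncertain. The family's calls were 7, 9 and 6 without control prefrontal libraries 1, 2 and 3, 7, 5 and 5 without lesioned prefrontal libraries 1, 2 and 3, and 9 without lesioned striatal library 3. With the GC and length offsets 10 were called, all higher.

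The higher genes were longer than the lower genes. Their transcripts had a median length of 4883 bases and their gene spans a median of 58.7 kb, against 3178 bases and 19.7 kb in the lower genes and 3478 bases and 25.9 kb over all genes tested. Length moved with the lesion effect over the whole table as well: of 10 equal groups of genes ordered by transcript length, the group with the shortest had a median mean effect of -0.05 and that with the longest 0.09. With the GC and length offsets 728 genes were called with the same sign, 632 of them among the 903, and the share of higher genes went from 56.3% to 47.3%.

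**Figure D3:**
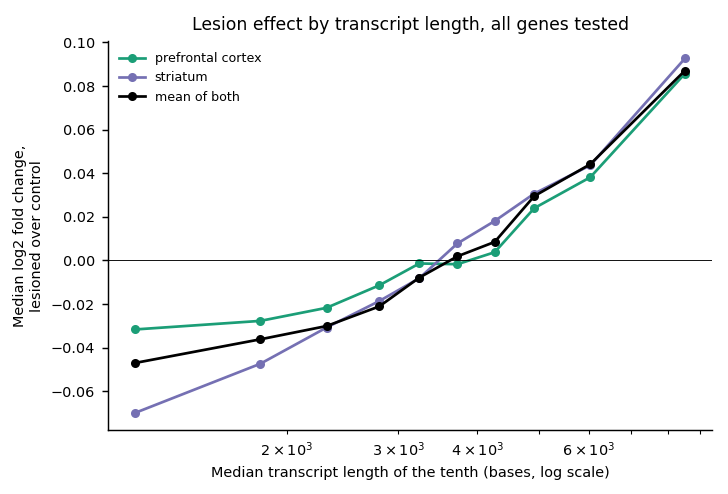
Median lesion effect (log2 fold change, lesioned over control) of 10 equal groups of the tested genes ordered by transcript length, against the median length of the group (bases, log scale). In both regions the medians rise from below 0 for short transcripts to above 0 for long ones.

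Lists of long genes had calls in 1 direction, most of which were lost with the offsets. Potassium channels had 6 of 45 tested members higher and 0 lower (among them Kcna1, Kcna4, Kcnh4, Kcnh7 and Kcnq3), and 2 with the offsets. Sodium, calcium and HCN channels had 5 of 31 higher (Cacna1b, Cacna1e, Cacna1i, Hcn2 and Scn2a), and 0 with the offsets. Of 30 long neuronal genes, 6 were higher, among them Lrp1b, Csmd1 and Magi2, and with the offsets 2 were higher and 1 lower. Without lesioned striatal library 2 these counts were 14, 12 and 11, and without single prefrontal libraries they fell to between 0 and 2, except for 4 long neuronal genes without control prefrontal library 2. Without control striatal library 3 or lesioned striatal library 3 they lay between 1 and 3. Without control striatal library 1 they were 3, 2 and 5, and without control striatal library 2 they were 4, 5 and 3. Without both striatal libraries that stood apart, 11 potassium channels were higher and 3 lower, 8 sodium, calcium and HCN channels were higher, and 8 long neuronal genes were higher and 2 lower. Kcna1, a channel of axons, kept its call with the offsets: it measured 81.4, 104 and 96.1 CPM in control and 115, 115 and 126 CPM in lesioned prefrontal cortex, and 81.3, 88.8 and 87.7 CPM in control and 122, 106 and 98.3 CPM in lesioned striatum (0.34 ± 0.07, adjusted p = 0.0162; with offsets 0.34, adjusted p = 0.0226).

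Chromatin regulators that were called were higher. Of 16 genes for KMT2 and SET-domain histone methyltransferases 4 were higher (Kmt2a, Kmt2c, Kmt2d and Ash1l). A list of 25 remodellers, BAF subunits and further regulators such as Ep300 had 4 higher (Arid1a, Chd9, Ep300 and Ep400). In both lists 0 were lower. Kmt2a, which methylates histone H3 at lysine 4, measured 156, 154 and 151 CPM in control and 223, 215 and 211 CPM in lesioned prefrontal cortex, and 242, 215 and 222 CPM in control and 297, 271 and 288 CPM in lesioned striatum. No lesioned library overlapped a control, and the mean effect was 0.41 ± 0.04 (SE; adjusted p = 0.000912). It is a core gene, with an effect of 0.27 (adjusted p = 0.00619) under the offsets. Kmt2d was not called under the offsets (0.15, adjusted p = 0.0935), nor was Ep300 (0.10, adjusted p = 0.222), and the counts of both lists became 1 and 0. Leaving out any library other than control striatal library 1 or lesioned striatal library 2 took the remodeller list's count to 0 or 1. Leaving out both striatal libraries that stood apart took it to 2. The methyltransferase count was 2 without lesioned prefrontal library 2 and 7 without lesioned striatal library 2.

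Enzymes of polyamine and sulfur amino acid metabolism gave some of the smallest p-values. Polyamines are small cations that Smox oxidises and Sat1 acetylates for breakdown. Smox measured 46.6, 43.7 and 44 CPM in control and 31.3, 29.8 and 27.4 CPM in lesioned prefrontal cortex, and 57.7, 60.2 and 55.5 CPM in control and 34.7, 36.6 and 32.9 CPM in lesioned striatum. The lesioned libraries were below all controls in both regions, and the mean effect, -0.67 ± 0.05 (SE; adjusted p = 0.000121), had the smallest p of all genes tested. Sat1 fell as well: it measured 43.9, 44.1 and 43.5 CPM in control and 30, 27.9 and 33.4 CPM in lesioned prefrontal cortex, and 37, 43.3 and 41.9 CPM in control and 29.6, 31.8 and 30.9 CPM in lesioned striatum (-0.47 ± 0.06, adjusted p = 0.00129). Amd1, which supplies the aminopropyl donor for polyamine synthesis, rose (0.19 ± 0.05, adjusted p = 0.0351), and the other 12 tested members of the polyamine list were not called. Cbs, which joins homocysteine and serine in the transsulfuration pathway, measured 41, 37.1 and 42.4 CPM in control and 19, 23.1 and 19.6 CPM in lesioned prefrontal cortex, and 42.8, 41.6 and 36.7 CPM in control and 21.4, 28.7 and 25 CPM in lesioned striatum. Its mean effect was -0.83 ± 0.08 (SE; adjusted p = 0.000589), with -0.97 ± 0.11 in prefrontal cortex and -0.69 ± 0.11 in striatum, and its libraries were far apart in both regions. In the same list of 16 tested genes Mat2a, which makes S-adenosylmethionine, rose slightly (0.19 ± 0.05), with overlap in prefrontal cortex. Smox, Sat1 and Cbs are core genes.

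By the size of the smaller regional effect, the leading higher gene was Rpe65 (chr3:159599175-159625321, plus strand), the isomerase of the visual cycle in retinal pigment epithelium. It measured 0.346, 0.321 and 0.204 CPM in control and 2.0, 1.09 and 2.36 CPM in lesioned prefrontal cortex, and 0.0583, 0.345 and 0.355 CPM in control and 2.58, 1.29 and 1.58 CPM in lesioned striatum. These correspond to 7, 5 and 3 counts in control and 38, 18 and 39 in lesioned prefrontal cortex and to 1, 6 and 7 in control and 42, 24 and 27 in lesioned striatum, so its level was low and the lesioned libraries were all above the controls. The mean effect was 2.68 ± 0.35 (SE; adjusted p = 0.00207), a fold of 6.43. Its control counts alone would not have passed the filter on low counts, so Rpe65 was tested through its lesioned libraries. The size of its effect, and with it the leading place, therefore rests on few control reads. Its call was kept when no filter on low counts was used. Serpinb1a, an inhibitor of leukocyte proteases, measured 1.28, 1.09 and 1.43 CPM in control and 2.73, 2.35 and 2.3 CPM in lesioned prefrontal cortex, and 2.27, 2.93 and 2.94 CPM in control and 6.45, 7.83 and 6.14 CPM in lesioned striatum, again apart in both regions (1.14 ± 0.13, adjusted p = 0.00116). Both are core genes. Further leading genes after the histones were Rnf17, a Tudor-domain protein of germ cells (1.41 ± 0.26), Ifit3b, an interferon-induced gene (0.92 ± 0.18), Abca8a, a lipid transporter (1.0 ± 0.21), Ttc12 (0.78 ± 0.14), Ccdc155 (0.87 ± 0.20), BC049352 (0.93 ± 0.24) and Tagap (0.83 ± 0.21). All of these lay between 0.321 and 9.38 CPM and were apart in both regions by the rule that chose them. The calls of BC049352 and Tagap were each lost in 15 of 28 other settings, and that of Ccdc155 in 11. Srebf2, the transcription factor that drives cholesterol synthesis, also rose (0.25 ± 0.05). Ifit3 (0.85 ± 0.21 in prefrontal cortex and 0.45 ± 0.20 in striatum) and Ifit3b were the 2 called among 29 interferon response genes.

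**Figure D4:**
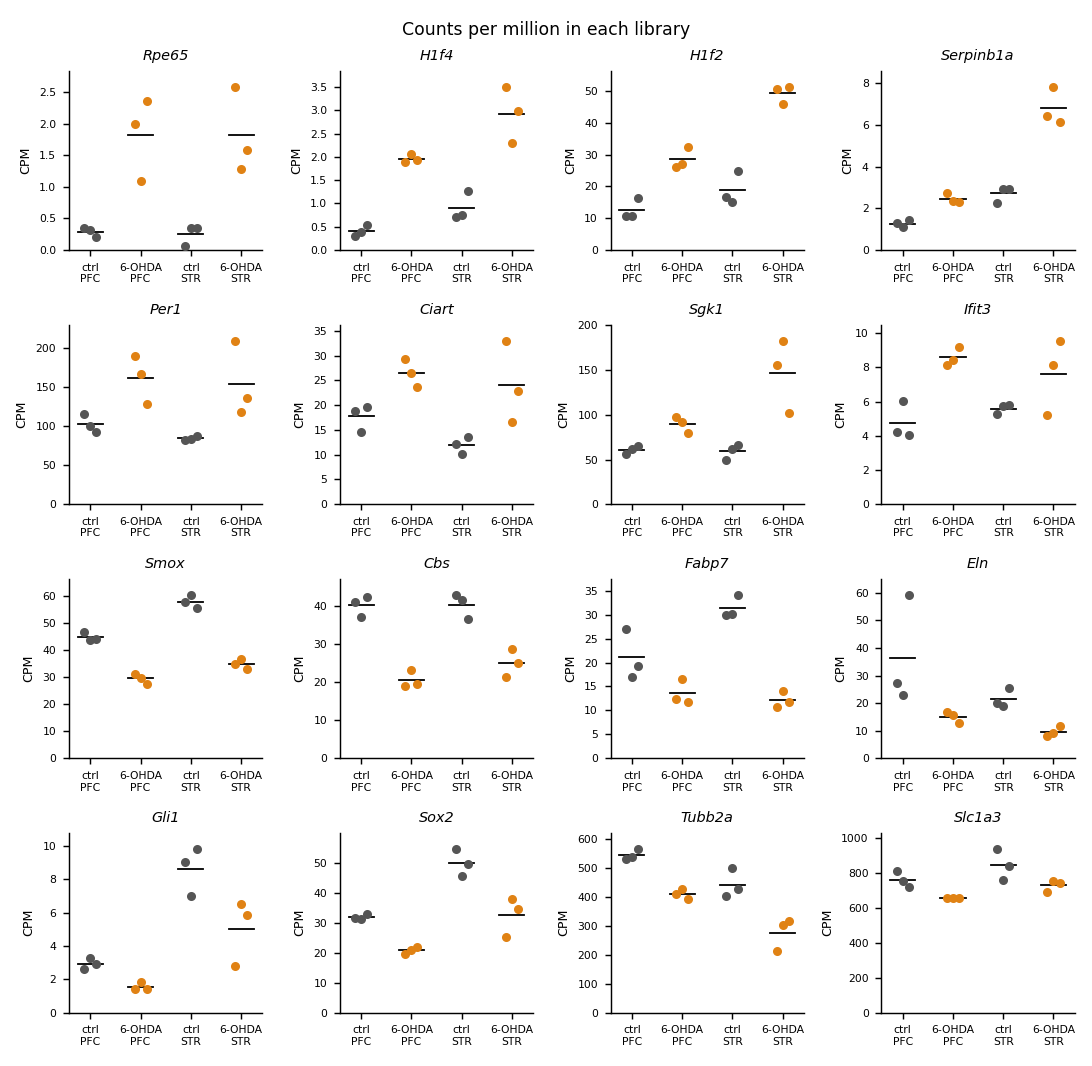
CPM (TMM-scaled) in each library for 16 genes called with the same sign in both regions. Grey points are control and orange points lesioned libraries, bars are group means, and each axis starts at 0. Lesioned and control points do not overlap within a region for any gene but Ifit3, where lesioned striatal library 1 lies just below the controls.

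Several higher genes are known from oligodendrocytes, neuroglial signalling or astrocyte metabolism. Trf, the iron carrier transferrin made by oligodendrocytes, measured 98.3, 116 and 138 CPM in control and 208, 178 and 201 CPM in lesioned prefrontal cortex, and 229.5, 238 and 307 CPM in control and 571, 694 and 477 CPM in lesioned striatum. The lesioned libraries were above all controls in both regions (0.95 ± 0.11, adjusted p = 0.00117). Hapln2, a link protein of nodes of Ranvier, rose too (0.66 ± 0.11, adjusted p = 0.00882). These were the 2 called, both higher, of 20 tested genes of mature oligodendrocytes and myelin, and Mbp (-0.16 ± 0.12) was not called. The summed level of that list was 7017 to 9807 CPM in control and 6122 to 7815 in lesioned prefrontal cortex, and 16058 to 20267 in control and 15003 to 23892 in lesioned striatum. Lgi4, a secreted protein of glia needed for peripheral myelination, measured 26.3, 25.4 and 26.6 CPM in control and 36.2, 34.8 and 34.4 CPM in lesioned prefrontal cortex, and 24.9, 26.2 and 26.2 CPM in control and 39.9, 37.5 and 40 CPM in lesioned striatum. Its groups were tight and apart, and its mean effect of 0.51 ± 0.04 (SE; adjusted p = 0.000245) had the second smallest p of all genes tested. Il33, a nuclear alarmin (0.73 ± 0.12), Utp14b (0.82 ± 0.12), the complement component C4b (0.52 ± 0.12) and Etnppl, an enzyme of phosphoethanolamine breakdown in astrocytes (0.92 ± 0.16), rose as well, the last with an overlap in striatum. Utp14b lies within the span of Acsl3 on the same strand, so its reads cannot be assigned with certainty.

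Most astrocyte markers that were called fell. Astrocytes buffer potassium and clear glutamate, and their transporters and connexins serve as markers. Of 21 tested markers 10 were called lower and 2 higher, with a median of -0.21, and 7 of the 10 were apart in both regions. Fgfr3, a growth factor receptor of astrocytes, measured 145, 130.3 and 134 CPM in control and 106, 104 and 96.1 CPM in lesioned prefrontal cortex, and 179.7, 161 and 149 CPM in control and 123, 126 and 122 CPM in lesioned striatum. No lesioned library reached a control, and the mean effect was -0.41 ± 0.05 (SE; adjusted p = 0.00207). Aqp4, the water channel of astrocyte endfeet, measured 134, 122 and 119 CPM in control and 94.3, 109.9 and 94.4 CPM in lesioned prefrontal cortex, and 133, 133 and 134 CPM in control and 103, 119 and 103 CPM in lesioned striatum (-0.32 ± 0.06, adjusted p = 0.00996), and its libraries were apart in both regions. The glutamate transporter Slc1a3 (-0.21 ± 0.06), the receptor Ntsr2 (-0.26 ± 0.05), the connexin Gjb6 (-0.38 ± 0.08) and the factor Sox9 (-0.43 ± 0.08) were lower and apart too. Acsbg1 (-0.22 ± 0.05), Mlc1 (-0.23 ± 0.06) and Slc7a10 (-0.27 ± 0.06) were lower with overlap in 1 region. The 2 higher markers were F3, tissue factor (0.45 ± 0.06, adjusted p = 0.00412), and the bicarbonate transporter Slc4a4 (0.36 ± 0.06, adjusted p = 0.0095), each apart in both regions. Slc1a2, Aldh1l1, Gja1 and Aldoc were among the 9 not called, as were S100b (0.01 ± 0.07) and Gfap (-0.41 ± 0.16). The summed level of the list was 8702 to 8959 CPM in control and 7860 to 8146 in lesioned prefrontal cortex, and 7943 to 8339 in control and 7118 to 7972 in lesioned striatum. Lower calls numbered 5 without control prefrontal library 1 and 4, 6 and 4 without lesioned prefrontal libraries 1, 2 and 3.

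Several factors and signals of neural progenitors and glia fell as well. SOX factors are high-mobility-group proteins, several of which set progenitor or glial identity. Of 16 tested members of this family, defined by symbol after values had been seen, 7 were lower and 0 higher, with a median of -0.27. Sox2 measured 31.6, 31.1 and 32.8 CPM in control and 19.6, 20.9 and 21.7 CPM in lesioned prefrontal cortex, and 54.4, 45.4 and 49.5 CPM in control and 25.2, 38 and 34.6 CPM in lesioned striatum. Its lesioned libraries were all below the controls (-0.61 ± 0.09, adjusted p = 0.00397). Sox21 (-0.61 ± 0.08), Sox13 (-0.57 ± 0.10), Sox9 and Sox1 (-0.58 ± 0.16) were apart in both regions as well, and Sox4 and Sox18 were the other lower members, while Sox10 of oligodendrocytes was not called (0.10 ± 0.08). The SOX count was 4 without control prefrontal library 1 or 3, any lesioned prefrontal library, or control striatal library 1. Fabp7, a fatty acid-binding protein of radial glia and astrocytes, measured 26.9, 17 and 19.3 CPM in control and 12.5, 16.6 and 11.7 CPM in lesioned prefrontal cortex, and 29.9, 30 and 34 CPM in control and 10.7, 14.1 and 11.8 CPM in lesioned striatum, below all controls in both regions (-1.0 ± 0.13, adjusted p = 0.00171). Through the Notch pathway neighbouring cells keep progenitors undifferentiated. Of 24 tested genes in its list, 4 were lower (Notch1, Nrarp, Heyl and Sox21) and 1 higher (Maml1, a coactivator, 0.31 ± 0.07). Sox21 is a SOX factor that was listed with the pathway, and it is counted among the SOX members above as well. Without both striatal libraries that stood apart 7 were lower. Notch1 measured 37, 37.6 and 41.1 CPM in control and 32.8, 30.8 and 27.3 CPM in lesioned prefrontal cortex, and 57.3, 53.8 and 51.2 CPM in control and 42.1, 42.3 and 44.7 CPM in lesioned striatum, apart in both regions (-0.34 ± 0.05, adjusted p = 0.00717). Nrarp, a feedback target, fell from 27.5 CPM or more in control to 20.3 or less in lesioned prefrontal cortex (-0.50 ± 0.07), and Heyl, another target, was among the 15 leading lower genes (-1.07 ± 0.20). Hes5 (-0.52 ± 0.21) and Hes1 (-0.16 ± 0.13) were not called, and the regional effects of Hes1 were opposite in sign. The homeobox gene Dbx2 (-0.57 ± 0.09) and Prom1 (-0.34 ± 0.06) were lower in both regions, as were 2 of 19 tested genes of oligodendrocyte precursors, Olig2 and Itpr2. That count was 0 without lesioned prefrontal library 2, 1 without lesioned prefrontal library 3, 3 without lesioned prefrontal library 1 or control striatal library 2, and 4 without lesioned striatal library 2 or with the offsets.

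The other leading lower genes have varied roles. Gli1, the transcription factor switched on by Hedgehog, measured 2.62, 3.28 and 2.93 CPM in control and 1.42, 1.81 and 1.39 CPM in lesioned prefrontal cortex, and 9.04, 7.02 and 9.79 CPM in control and 2.76, 6.49 and 5.85 CPM in lesioned striatum, apart in both regions (-0.85 ± 0.20, adjusted p = 0.0298). Gdf11, a ligand of the TGF-beta family, measured 17.7, 20.2 and 18.1 CPM in control and 12, 13.9 and 10.1 CPM in lesioned prefrontal cortex, and 25.9, 28.4 and 27.8 CPM in control and 12.8, 18.6 and 19.5 CPM in lesioned striatum (-0.66 ± 0.11, adjusted p = 0.007). The Wnt receptor Fzd10 (-1.1 ± 0.21), the BMP modulator Kcp (-0.92 ± 0.20), the inhibitory SMAD protein Smad6 (-0.76 ± 0.19) and the Wnt inhibitor Apcdd1 (-0.61 ± 0.07) were lower too. Gpr179, an orphan receptor of retinal bipolar cells, had counts of 11, 11 and 8 in control and 3, 2 and 0 in lesioned prefrontal cortex, so its effect there rests on few reads, and measured 2.62, 2.01 and 2.64 CPM in control and 0.553, 1.55 and 1.52 CPM in lesioned striatum (-1.77 ± 0.38). Rilp (-0.78 ± 0.18) and Ctla2a (-0.83 ± 0.19) were lower as well. The calls of Gli1, Smad6, Rilp and Ctla2a were lost in 10, 13, 7 and 7 of 28 other settings. Gli1 lost its call when any single prefrontal library was left out. Traf3, an adaptor of immune receptors, was low in all lesioned libraries: it measured 154, 181 and 163 CPM in control and 123, 123 and 109 CPM in lesioned prefrontal cortex, and 153, 158 and 146 CPM in control and 95.9, 100.2 and 102 CPM in lesioned striatum (-0.55 ± 0.05, adjusted p = 0.000589). Its lesioned libraries lay far below the controls in both regions. Traf3, Apcdd1, Gdf11, Sox2, Fabp7 and Notch1 kept their calls in every setting that fitted both regions together.

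Some markers of endothelial cells fell in both regions. Of 21 tested markers of endothelial and mural cells 5 were lower and 0 higher (Cldn5, Abcb1a, Slco1a4, Kdr and Mfsd2a). Libraries were apart in both regions for 3 of the 5. Cldn5, the tight junction protein of the blood-brain barrier, measured 38.1, 36.4 and 41.8 CPM in control and 30.4, 30.4 and 24.1 CPM in lesioned prefrontal cortex, and 32.2, 29.1 and 28.4 CPM in control and 19.6, 19.7 and 23.1 CPM in lesioned striatum, apart in both regions (-0.49 ± 0.07, adjusted p = 0.00515). The other genes of vessels and matrix given here were named after their values were seen or for the size of their effect, and are no sign of a direction of such genes: of 43 tested collagens 5 were lower and 0 higher, and the matrix protein Thbs4 was higher (1.26 ± 0.18, adjusted p = 0.00412). Vcam1, an adhesion molecule of endothelium and astrocytes, was tight within groups: it measured 29.6, 31 and 30.9 CPM in control and 23, 21.9 and 24 CPM in lesioned prefrontal cortex, and 35.2, 38.8 and 38.6 CPM in control and 26.3, 24.4 and 24.1 CPM in lesioned striatum (-0.50 ± 0.05, adjusted p = 0.000589). The thyroid hormone transporter Slco1c1 (-0.54 ± 0.07), the basement membrane proteins Nid1 (-0.59 ± 0.07) and Col4a1 (-0.34 ± 0.05), fibronectin, Fn1 (-0.48 ± 0.05), the collagen chaperone Serpinh1 (-0.72 ± 0.11), the protease Htra1 (-0.57 ± 0.06) and Tinagl1 (-0.73 ± 0.13) were lower and apart in both regions, and so were Timp4 (-0.50 ± 0.06) and Fgl2 (-1.02 ± 0.15). Eln, elastin of vessel walls, led the lower genes by the smaller regional effect and measured 27.3, 22.8 and 59.1 CPM in control and 16.8, 15.8 and 12.9 CPM in lesioned prefrontal cortex, and 19.9, 19.2 and 25.6 CPM in control and 8.17, 9.22 and 11.8 CPM in lesioned striatum (-1.2 ± 0.21, adjusted p = 0.0095). Control prefrontal library 3 was high for Eln. The count of endothelial calls was 3 without control prefrontal library 1 or 3, any lesioned prefrontal library, or control striatal library 3. The summed level of the endothelial list was 749 to 832 CPM in control and 682 to 737 in lesioned prefrontal cortex, and 643 to 710 in control and 590 to 634 in lesioned striatum.

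Meningeal fibroblast markers had 7 of 17 tested members lower and 0 higher (Igf2, Foxc1, Col1a2, Col3a1, Fmod, Slc22a6 and Aldh1a2), and 4 without control prefrontal library 3. Of the 7, 2 had libraries apart in both regions. Another 2 of the 17 were called for the average with opposite signs in the regions. The median effect of all 17 was -0.16 in prefrontal cortex and -1.43 in striatum. The summed level of the list was 840 to 906 CPM in control and 824 to 968 in lesioned prefrontal cortex, where the groups overlapped, and 610 to 713 in control and 263 to 419 in lesioned striatum. Igf2, a growth factor of meninges and choroid plexus, measured 1.83, 1.86 and 2.59 CPM in control and 1.26, 1.51 and 0.968 CPM in lesioned prefrontal cortex, and 1.87, 2.82 and 2.49 CPM in control and 0.368, 0.429 and 0.468 CPM in lesioned striatum. It was apart in both regions (-1.61 ± 0.19, adjusted p = 0.00129), with -0.74 ± 0.25 in prefrontal cortex and -2.48 ± 0.29 in striatum. Foxc1, a factor of meningeal development, was apart in both regions too (-0.50 ± 0.20 in prefrontal cortex and -0.86 ± 0.22 in striatum). For Fmod, Slc22a6, Aldh1a2 and 4 other genes of the 903 the difference between regions was itself called, as it was for 12 (0.0825%) of all genes tested. How much meninges each dissection held was not measured, and its part in these values was not tested.

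Several tubulins and chaperones of the endoplasmic reticulum fell. Tubulins are the subunits of microtubules, and 6 of 14 tested members, a family defined by symbol after values had been seen, were lower and 0 higher, each of the 6 apart in both regions. Tubb2a measured 531, 535 and 563 CPM in control and 407, 425 and 392 CPM in lesioned prefrontal cortex, and 401, 498 and 426 CPM in control and 212, 301 and 315 CPM in lesioned striatum. The lesioned libraries were below all controls (-0.55 ± 0.09, adjusted p = 0.00759), and lesioned striatal library 1 was the lowest. Tuba4a (-0.27 ± 0.05), Tuba1a (-0.24 ± 0.06), Tubb3 (-0.34 ± 0.07), Tubb4b (-0.38 ± 0.07) and Tubb5 (-0.31 ± 0.06) followed. Of 25 tested genes of endoplasmic reticulum stress 5 were lower and 0 higher, all 5 apart in both regions. These were the chaperone Hspa5 (-0.22 ± 0.05), the disulfide isomerases Pdia4 (-0.34 ± 0.05) and Pdia6 (-0.21 ± 0.05), Dnajc3 (-0.25 ± 0.05) and Sdf2l1 (-0.33 ± 0.08). Pdia4 measured 42.2, 46.5 and 44.3 CPM in control and 34.9, 35.7 and 31.7 CPM in lesioned prefrontal cortex, and 50.1, 48.2 and 47.5 CPM in control and 40.4, 40.5 and 37.7 CPM in lesioned striatum, with no overlap in either region. Without any of control prefrontal libraries 1 to 3, lesioned prefrontal libraries 1 to 3 or control striatal library 3, between 1 and 3 were called.

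Nuclear-encoded subunits of the respiratory chain had 6 of 74 tested members lower and 0 higher (Atp5g1, Cox6b1, Ndufb6, Ndufb9, Ndufc1 and Uqcr11), with a median of -0.10. These transcripts are short, and with the offsets for GC content and length 1 was called and the median was -0.05. The count was 10 without lesioned striatal library 2, and 3 or fewer without any prefrontal library, control striatal library 2 or 3 or lesioned striatal library 3. The lactate transporter Slc16a1 of astrocytes and vessels measured 57.8, 58.4 and 71.5 CPM in control and 40.2, 39.1 and 44.1 CPM in lesioned prefrontal cortex, and 51.7, 51.8 and 63.6 CPM in control and 40, 43.6 and 39.3 CPM in lesioned striatum, apart in both regions (-0.52 ± 0.07, adjusted p = 0.00316), and its partner Bsg fell slightly (-0.22 ± 0.05). Elovl2 (-0.42 ± 0.07) and Fads2 (-0.22 ± 0.05), which lengthen and desaturate fatty acids, were lower and apart in both regions. Of 13 tested elongases and desaturases these were the 2 lower, 1 was higher (Fads6, 0.31 ± 0.08) and the median was 0.01. Fads2 lost its call without any prefrontal library, control striatal library 1 or 3 or lesioned striatal library 3, and Elovl2 was then the 1 lower gene.

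Other groups had no or few shared calls. None of 24 tested markers of striatal projection neurons was called with the same sign: their median effect was -0.41 in prefrontal cortex and 1.26 in striatum. Cortical excitatory markers (0 of 22, medians 0.05 and -0.44) and hypothalamic and basal forebrain border markers (0 of 16) had none. Cytosolic ribosomal proteins (0 of 62, median -0.04) and neurotrophins with their receptors (0 of 18) had none either. Among 22 tested microglial markers 1 was called, Ly86, higher. The 4 tested blood genes were not called, with a median of -1.51 and a summed level of 0.878 to 17.5 CPM over the 12 libraries.

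**Figure D5:**
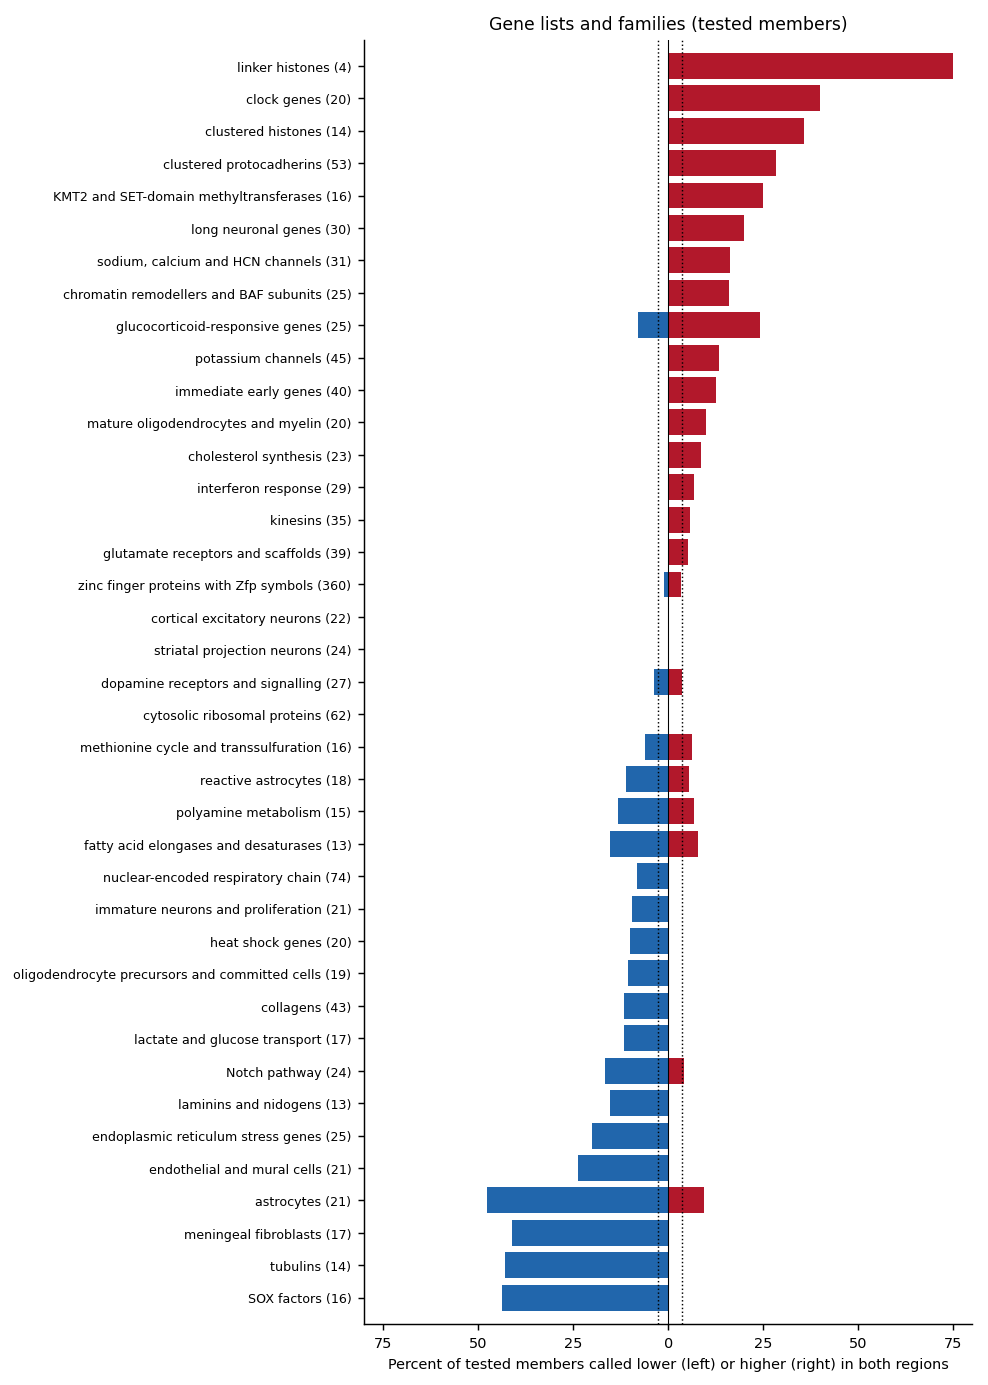
Percent of tested members of gene lists and families that were called lower (blue, to the left) or higher (red, to the right) with the same sign in both regions. The number of tested members is in parentheses. Lists with no or a single same-sign call are not drawn, other than striatal projection neurons, cortical excitatory neurons and cytosolic ribosomal proteins. Dotted lines mark the shares over all genes tested, 2.72% lower and 3.49% higher, and the lists with the longest bars are linker histones and clock genes on the right and astrocytes, SOX factors, tubulins and meningeal fibroblasts on the left.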

How the data were processed

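Read counts per gene symbol were deposited by the authors as 1 table over 12 libraries of mouse prefrontal cortex and striatum. Per the labels' protocols, libraries were made from 500 ng of total RNA (RNA integrity number of at least 8.9) with a stranded mRNA kit and sequenced as 101 bp paired reads. STAR 2.7.1a, featureCounts and the build mm10 are named in the submitters' processing notes. Neither names an annotation or strand setting, which is thus not given in the sources used here. The 5562 symbols with only multiples of 11 were left out. The rest were filtered with filterByExpr (minimum count 10) and scaled with TMM, and 1 fit with a mean per group was made (edgeR 4.0.16, quasi-likelihood, R 4.3.3; limma 3.58.1 and DESeq2 1.42.0 for alternatives). The contrast was the mean of both regional lesion effects, and calls were made at an adjusted p of 0.05. Total counts of 15078631 to 20925452 limited precision for genes near the floor of 3 counts. Gene lengths, spans and overlaps are from GENCODE M21 on GRCm38, and promoters from RefSeq on GRCm38.p6.

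The members and gene lists were chosen with earlier results of these data known. Named genes were the 15 in each direction with the largest smaller regional effect (libraries apart, mean above 1 CPM, regular symbols), up to 3 of each list by p, the dopamine genes, and further genes named after their values were seen. Alternatives changed the scaling, filter, tool, multiples of 11, offsets, replicate block and each library. Replicate numbers were checked for pairing: same-numbered libraries of the same treatment correlated by -0.004 to 0.092 in their deviations from the group means. Other-numbered ones correlated by -0.12 to 0.053. No pairing was used in the main fit, though these values cannot show whether libraries share an animal. A few genes are not reported here. The fit was tested on simulated data in which every changed gene had the same effect in both regions. That test does not bear on calls carried by a single region.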

Additional observations from a re-analysis of the deposited data

Results flagged for a closer look

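The interaction term of the same fit was tested with the quasi-likelihood test of edgeR, with p-values adjusted over all genes tested. By this term the striatal and the prefrontal effect differed in 7 of the 903 same-sign genes, and in 12 of all genes tested. Values of 6 of the 7 are given here.

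The meningeal fibroblast markers Fmod, Slc22a6 and Aldh1a2, and the extracellular matrix gene Ogn fell further in striatum than in prefrontal cortex. The striatal effect minus the prefrontal effect was -2.22 for Fmod (adjusted p = 0.0125), -2.68 for Slc22a6 (adjusted p = 0.0161), -1.87 for Aldh1a2 (adjusted p = 0.0393) and -1.82 for Ogn (adjusted p = 0.0393). Their prefrontal effects lay between -0.25 and -0.15, and the prefrontal libraries overlapped.

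Cdh1 and Mpzl2 differed between regions by -4.67 (adjusted p = 0.0393) and -4.72 (adjusted p = 0.0378). These rest on 3 counts over the lesioned striatal libraries for each gene, against 104 and 101 over the control striatal libraries. The ratio of lesioned to control counts was 0.0288 for Cdh1 (95% exact interval 0.00584 to 0.0864) and 0.0296 for Mpzl2 (0.00601 to 0.089), which covers counting error only. Fitted folds of such genes depend on the prior count. Counts of Cdh1 in striatum were 19, 54 and 31 in control and 0, 1 and 2 in lesioned libraries, with the highest in control library 2, which also had the highest level of choroid plexus markers.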

How the results depend on the processing

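The count of same-sign calls was within 1.5 times of 903 under RLE and upper-quartile scaling (889 each), limma-voom without (853) and with (992) quality weights, no filter (825), a filter at 1 CPM (909), rows of multiples of 11 kept as deposited (775) or divided by 11 (896), an additive fit (687) and GC and length offsets (728, of which 344 were higher and 384 lower). With DESeq2, 1477 genes were called, 1432 with the same sign, 833 higher and 599 lower. With each region alone, every count was 0: calls, same-sign calls, higher, lower, and those with libraries apart, higher and lower. That setting asks each region to pass on its own 6 libraries.

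Leaving out 1 library gave 347 to 1769 calls, 339 to 1642 with the same sign, 175 to 1045 higher and 163 to 597 lower. Those with libraries apart ranged from 298 to 1014, from 162 to 641 higher and from 136 to 373 lower. The same-sign count was 384, 542 and 426 without control prefrontal libraries 1, 2 and 3, 341, 382 and 339 without the lesioned ones, 704, 726 and 583 without control striatal and 884, 1642 and 629 without lesioned striatal libraries.

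The 7 genes with a called difference between regions became 34 with DESeq2, 1 with limma-voom, 0 with quality weights, 3 with multiples of 11 kept, 29 without both striatal libraries that stood apart and 0 to 49 without 1 library. The cause of these moves was not tested.

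Correlations of deviations were -0.112 to 0.112 over all same-numbered pairs, which include pairs of lesioned and control libraries. Between regions of the same treatment they were -0.004 to 0.092 for same-numbered and -0.12 to 0.053 for other-numbered libraries. Such values cannot show whether libraries share an animal. A replicate block gave 735 same-sign calls with the number as a term and 790 with duplicateCorrelation (consensus correlation 0.0216), and 4 called differences in both. The replicate block with the offsets gave 604 calls, 591 with the same sign, 286 of them higher and 202 higher with libraries apart, and 4 called differences. Of 178 named genes that were called, between 102 and 178 remained called in each setting other than the regions alone, and 0 changed direction in any setting. Genes near the floor of 3 counts are limited by depth.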

Other observations

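Further groups held single shared changes that the account above does not describe. Metabotropic glutamate receptors Grm3 (0.50 ± 0.09) and Grm7 (0.26 ± 0.06, as mean log2 fold changes ± SE) were the 2 called of 39 tested glutamate receptors and scaffolds, both higher. Kif13b (0.41 ± 0.08) and Kif17 (0.47 ± 0.12), motors that carry cargo along microtubules, were the 2 called of 35 tested kinesins, both higher. Slc7a11, the cystine transporter (-0.22 ± 0.06), was the 1 called of 24 Nrf2 targets, lower. Among 43 collagens, 5 were lower and 0 higher: Col9a3, Col4a1, Col4a5, Col3a1 and Col1a2. The lower collagens numbered 3 without control prefrontal library 1 or lesioned prefrontal library 1 or 3, and 2 without control prefrontal library 3. Zinc finger genes with Zfp symbols had 12 of 360 higher and 4 lower, shares of 3.33% and 1.11% beside 3.49% and 2.72% over all genes tested. Without 1 library these counts ranged from 4 to 23 higher and from 1 to 7 lower: 4 were higher without any prefrontal library and 23 without lesioned striatal library 2. The RNA-binding proteins Zfp36l2 (-0.58 ± 0.10) and Zfp36l1 (-0.35 ± 0.08), which promote decay of mRNAs with AU-rich elements, were among the 4 lower Zfp genes and were apart in both regions.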
